A study of Homo sapiens with 6 samples.

Results

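The genes described here encode the junctions that hold neighbouring epithelial cells together: claudins, Occludin and the scaffolds of tight junctions, the JAM and nectin adhesion molecules, polarity proteins, cadherins and catenins, desmosomal proteins, protocadherins and connexins. They were chosen by gene symbol from a table of 7758 genes, of which 6740 are protein-coding, and the naming rule found 53 of them. GENCODE 29 annotates 190 genes that fit the rule, so 27.9% were listed, against 33.8% of its 19951 protein-coding genes. For 50 of these the symbol names a junction gene, while CLDND2, DSCAM and DSCC1 only begin with the same letters and are kept apart. RNA was sequenced from ARPE-19 cells, a human cell line derived from retinal pigment epithelium (RPE). In one group of 3 libraries METTL3 was silenced by a short hairpin RNA (sh-METTL3), delivered by lentivirus with puromycin selection in the study's methods, and the other group of 3 had a control hairpin (sh-Control). Both groups received lipopolysaccharide (LPS), a bacterial product that triggers inflammation, at 1 μg/ml for 24 h, so no library shows the cells without LPS. The number of separately infected lines behind each group is not given in the sources used here, so the p-values measure only the spread between these libraries, which may be technical.

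In an epithelium, tight junctions seal the space between cells. Claudins form the seal and its ion-selective pores, Occludin accompanies them, and ZO proteins such as the product of TJP1 tie both to the actin skeleton. Adherens junctions below them bind cells through cadherins and catenins, desmosomes anchor the intermediate filaments, and gap junctions built from connexins pass small molecules between cells. In the eye the RPE uses these junctions as the outer blood-retinal barrier.

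The table holds read counts divided by 1 size factor per library, called scaled counts below, and only genes that its authors had called different between the groups. A junction gene outside it, such as CDH1, CDH2, CTNNB1 or DSP, was not analysed here. The reads falling on listed genes numbered 10898434 to 17750052 per library. Replicates were compared by a chi-square of their reads, which per degree of freedom was 3.95 for the closest pair and 18.0 for the farthest, so no library was a copy of another, and the 2 largest values both involved sh-METTL3 replicate 3. METTL3, which encodes the enzyme that writes N6-methyladenosine (m6A) into mRNA, had 1154, 1108 and 1091 scaled counts in the control libraries and 966, 1001 and 765 in the METTL3-silenced libraries, so that its mean fell by 18.5%. Of 13 RPE markers 7 were listed: KRT8, KRT18, MITF and LRAT were higher and SERPINF1, PMEL and BEST1 lower. The sum of the 7 ranged from 18864 to 20134 scaled counts in control libraries and from 30158 to 33478 in silenced libraries. KRT8 and KRT18, keratins of many epithelia, made up most of it, and without them the sum of the other 5 ranged from 2558 to 2650 in control libraries and from 1646 to 1718 in silenced libraries. Of 6 endothelial markers none was listed, and of 6 mesenchymal markers 3 were, all lower (COL1A1, COL1A2 and PDGFRB), with a sum of 11164 to 13066 in control and 4710 to 5361 in silenced libraries. Other genes that mesenchymal cells use moved both ways. VIM (log2 fold change 0.96), TWIST1 (0.48) and CDH11 (0.26) were higher, and SNAI1 (-2.31) and ZEB2 (-0.60) were lower. The sum covers the 3 listed markers alone. The part of these shifts in the junction values was not tested. In RNA from whole cultures, fewer cells of a type and less RNA per cell cannot be told apart.

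All 53 genes passed the limma test at an adjusted p of 0.05, 22 of them higher and 31 lower in the silenced cells. Because the list was selected on the same libraries, 97.9% of all its genes passed, 46.6% higher and 51.3% lower, and nothing can be read from that count. The genes were therefore described by the size of the difference. A log2 fold change of at least 1 in either direction was reached by 30 of 53, against 30.5% of the list, with 13 higher (17.4% of the list) and 17 lower (13.1% of the list). All members are protein-coding, and of the 6740 listed protein-coding genes 25.1% reached it, 845 higher and 849 lower. Among the 50 junction genes it was 28, or 56%, with 12 higher and 16 lower. These shares differed with expression level. Among the 29 junction genes with a mean scaled count of at least 100 there were 7 (24.1%, against 15.1% of the 6035 listed genes at that level), and among the 21 below 100 all 21 did, against 84.6% of 1723. The median log2 fold change of the 50 was -0.42, that of the whole list -0.21 and that of its protein-coding genes -0.25. At a mean of at least 100 it was -0.29 for the junction genes and -0.26 for the list. Below 100 it was -1.33 for the junction genes and 1.15 for the list, which there includes non-coding genes. The ranges of the groups were separate in 52 of the 53 genes, F11R being the exception, and in 98.5% of the list.

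**Figure D1:**
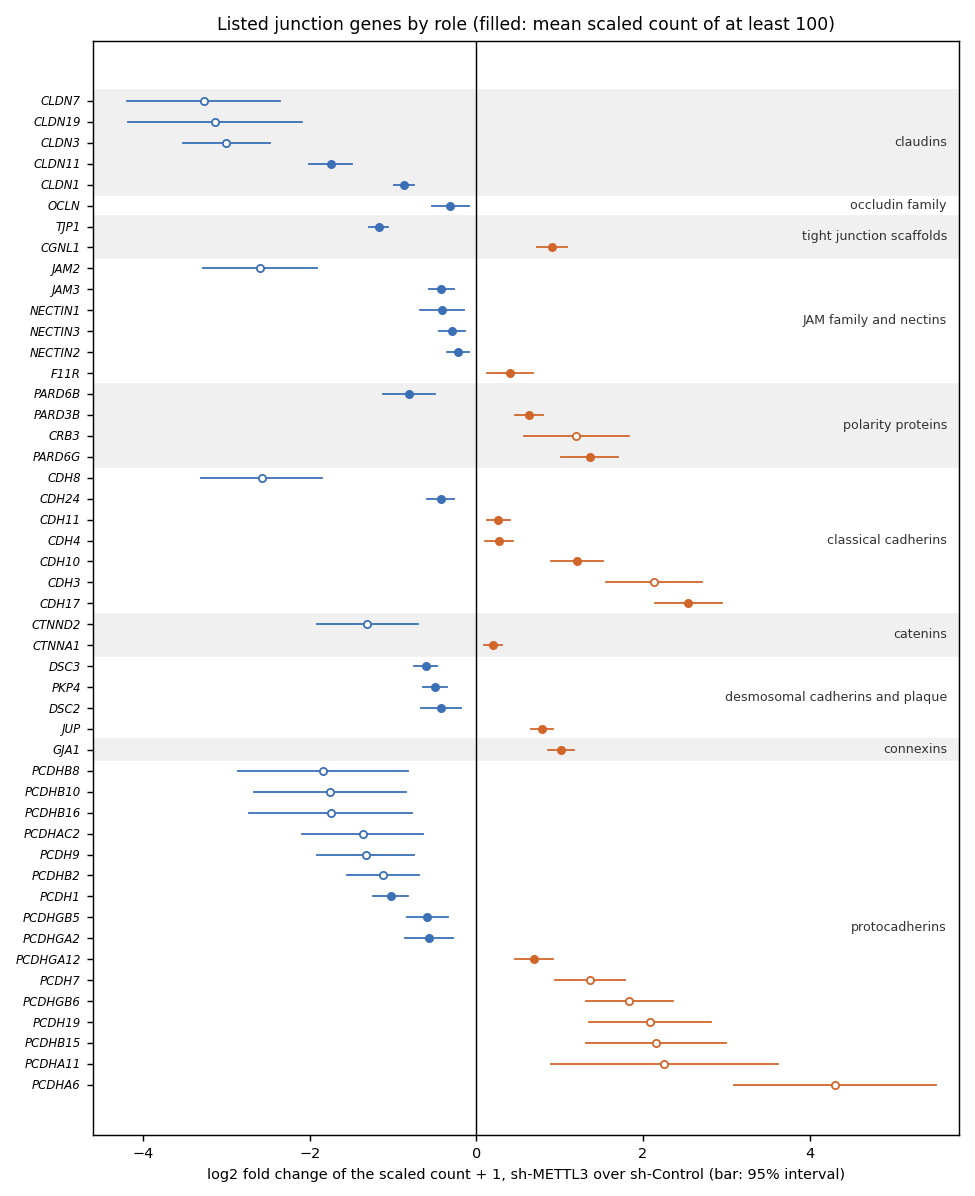
Listed junction genes by role, apart from a pair not reported singly, with the log2 fold change of the scaled count + 1 (METTL3-silenced over control) on the horizontal axis, 95% intervals as bars and filled points for a mean scaled count of at least 100. All 5 claudins lie left of 0, GJA1 and CGNL1 lie right of it, and the cadherins and protocadherins lie on both sides; for CLDN19 and PCDHA6, which had no read in one group, the point depends on the pseudocount and is no bound.

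All 5 listed claudins fell in METTL3-silenced cells, out of 24 annotated claudins, the rest of which were not analysed here. CLDN11 (GRCh38 chr3:170418865-170454733, plus strand), a claudin best known from myelin and the testis barrier, had 4459, 5528 and 5396 scaled counts in the control libraries and 1665, 1674 and 1251 in the silenced libraries. Every silenced library lay below every control library, with means of 5128 ± 583 and 1530 ± 242 (SD, n = 3 each). Its log2 fold change was -1.75 ± 0.117 (SE, limma adjusted p 2.35e-06). A second annotated gene on the same strand shares 18.3% of its exon bases, so reads there could belong to either. CLDN1 (chr3:190305701-190322475, minus strand), a sealing claudin of many epithelia, had 4085, 3803 and 3875 against 2101, 2246 and 2087, again without overlap. Its log2 fold change was -0.87 ± 0.0543 (SE, limma adjusted p 1.48e-06), and the mean fell by 45.3%.

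The 3 other claudins were far weaker. CLDN3, another sealing claudin, had 110, 140 and 144 scaled counts in control libraries and 14.0, 12.9 and 20.2 in silenced libraries, a log2 fold change of -3.00 ± 0.236 (SE, limma adjusted p 6.47e-06). CLDN7, a claudin of tubular and gut epithelia, went from 34.3, 38.4 and 27.1 to 4.66, 2.58 and 1.12, the last of these being 1 read, and 10.8% of its exon bases are shared with another gene on the same strand. CLDN19, which RPE and kidney tubules are known to use, had 7.98, 5.76 and 10.3 in control libraries and no read in any silenced library. With a floor of 3 reads in each silenced library, it was at least 2.40-fold lower, a limit that covers counting error only. The median log2 fold change of the 5 claudins was -3.00 as fitted and -1.75 with CLDN19 placed at that bound, against -0.21 for the list.

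Per kilobase of exon, the claudin messages added up to 2412, 2646 and 2631 in the control libraries and 1033, 1073 and 921 in the silenced libraries. The makeup shifted as well as the amount. CLDN11 held 53.5% ± 3.46 (SD, n = 3) of the listed claudin sum in control cells and 40.5% ± 3.61 in silenced cells, while CLDN1 went from 41.9% ± 3.79 to 58.2% ± 3.28. The ratio of CLDN11 to CLDN1 per kilobase was 1.07, 1.43 and 1.37 in control libraries and 0.778, 0.732 and 0.588 in silenced libraries, lower in each of the latter. Which of the pair led in silenced cells depended on the length used: per kilobase of the longest transcript, an alternative chosen after seeing the data, the ratio was 1.75, 2.33 and 2.23 in control and 1.27, 1.20 and 0.962 in silenced libraries. The exact two-sided permutation p of this ratio was 0.1, the smallest that 3 against 3 libraries allow, and 0.14 when adjusted over the 7 ratios compared. The per-kilobase ratio of CLDN11 to OCLN went from 27.8 ± 2.42 to 10.3 ± 1.54 (SD, n = 3 each), with the same p-values from the exact test.

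Occludin and ZO-1 were the junction proteins the study measured, so their messages were examined next. OCLN (ENSG00000197822, chr5:69492292-69558104, plus strand) had 311, 328 and 363 scaled counts in control libraries and 268, 271 and 264 in silenced libraries. The groups did not overlap, but the gap between the lowest control and the highest silenced library was smaller than the range of the control libraries. The log2 fold change was -0.32 ± 0.0996 (SE, limma adjusted p 0.0318), with means of 334 ± 26.3 and 268 ± 3.19 (SD, n = 3 each). The call was lost in 8 of 16 alternatives, among them edgeR scaled by RLE (adjusted p 0.256) or by TMM (0.0581), and the fits in which sh-Control replicate 2 (limma adjusted p 0.0803), sh-Control replicate 3 (0.139), sh-METTL3 replicate 1 (0.0753), replicate 2 (0.0736) or replicate 3 (0.0517) was left out. The adjusted p ranged from 0.0107 to 0.256 over its 16 alternatives.

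TJP1, which encodes ZO-1 (ENSG00000104067, chr15:29699367-29968865, minus strand), showed a larger difference than OCLN. It had 3729, 3802 and 3774 scaled counts in control libraries and 1672, 1601 and 1742 in silenced libraries, with each group tightly clustered and the highest silenced library far below the lowest control. The log2 fold change was -1.17 ± 0.0519 (SE, limma adjusted p 1.85e-07), and the call held in all 16 alternatives. CGNL1, which encodes paracingulin, a linker of junctions to actin and to regulators of small GTPases, rose instead. It had 543, 533 and 536 in control libraries and 965, 945 and 1134 in silenced libraries, a log2 fold change of 0.91 ± 0.0818 (SE, limma adjusted p 1.62e-05). Per kilobase, CGNL1 stood at 0.186 ± 0.00362 of TJP1 in control cells and at 0.788 ± 0.0514 in silenced cells (SD, n = 3 each), with no overlap. Since CGNL1 rose and TJP1 fell without overlap, the exact two-sided permutation p of 0.1 (adjusted p 0.14) followed from those values.

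**Figure D2:**
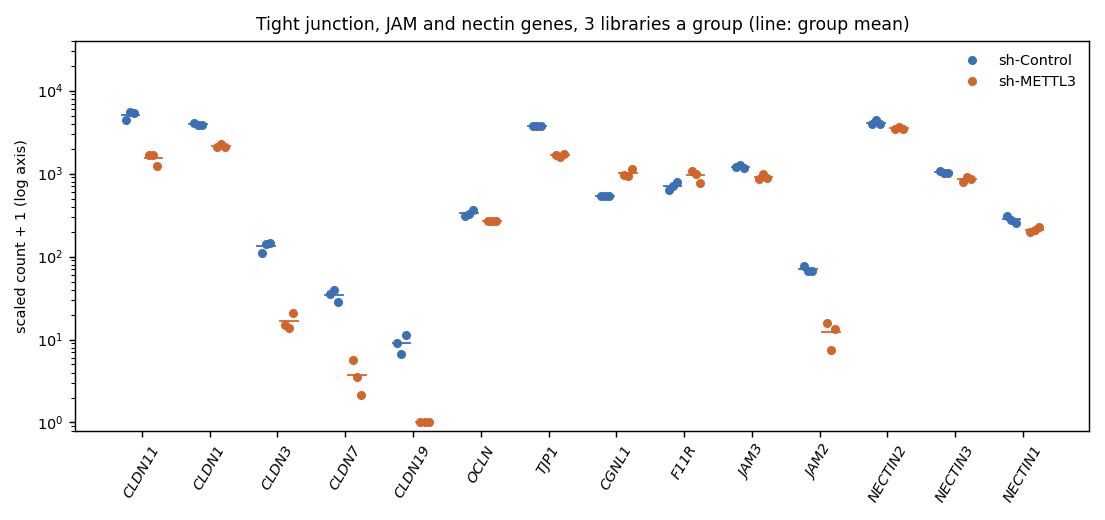
Scaled count + 1 on a log axis for each of the 6 libraries, for the claudins, OCLN, TJP1, CGNL1, the JAM family and the nectins, with a line at each group mean. CLDN11 falls from a mean of 5128 to 1530 and TJP1 from 3768 to 1672, CGNL1 rises from 537 to 1015, and F11R is the gene whose groups overlap.

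The JAM and nectin families, immunoglobulin-like adhesion molecules of tight and adherens junctions, gave mostly small values. JAM2 (chr21:25639272-25717562, plus strand) fell most, from 76.6, 66.3 and 66.4 scaled counts to 14.9, 6.44 and 12.3, a log2 fold change of -2.60 ± 0.309 (SE, limma adjusted p 0.000104). JAM3 had 1195, 1266 and 1184 against 866, 981 and 879 (log2 fold change -0.42), with no overlap. The convergent gene NCAPD3 shares 8.53% of the JAM3 exon bases on the opposite strand and was itself lower (-0.97), and without known strandedness the reads there cannot be told apart. NECTIN2, the family member with the most counts, had 3918, 4430 and 3966 against 3481, 3657 and 3411 (-0.22, limma adjusted p 0.0156). NECTIN3 and NECTIN1, partners that bind each other across the cell border, had log2 fold changes of -0.29 and -0.41.

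These small differences did not hold in every alternative. The NECTIN2 call was lost without sh-Control replicate 2 (limma adjusted p 0.0681) or sh-METTL3 replicate 1 (0.0565). The NECTIN1 call was lost without sh-Control replicate 1 (0.0921) or 2 (0.0616) and without sh-METTL3 replicate 1 (0.0676) or 2 (0.0564), all by limma. With edgeR and RLE factors the log2 fold changes shrank to -0.10 for NECTIN2, -0.17 for NECTIN3 and -0.30 for NECTIN1, and none of the 3 passed. F11R, which encodes JAM-A, had 634, 714 and 795 scaled counts in control libraries and 1078, 1001 and 772 in silenced libraries. The lowest silenced library lay below the highest control library. Its log2 fold change of 0.40 (limma adjusted p 0.0296) did not pass without sh-Control replicate 1 (0.146) or 2 (0.0966), nor without sh-METTL3 replicate 1 (0.145) or 2 (0.113), and 36.6% of its exon bases belong to a second gene on the same strand as well.

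Polarity proteins place the tight junction at the border of the apical and lateral membrane. Of 4 listed, 3 rose and PARD6B fell. PARD3B (chr2:204545793-205620162, plus strand), a relative of the PAR3 scaffold, had 776, 702 and 835 against 1143, 1227 and 1217, a log2 fold change of 0.64 ± 0.0758 (SE, limma adjusted p 0.000107). The PAR6 adaptors moved apart from each other. PARD6G had 90.1, 120 and 86.9 scaled counts in control and 239, 250 and 271 in silenced libraries (1.36 ± 0.154, SE), and PARD6B had 429, 481 and 523 in control and 333, 260 and 228 in silenced libraries (-0.81 ± 0.141, SE). Neither pair of groups overlapped. The antisense transcript PARD6G-AS1 also rose (1.25), and AC139100.1, which shares 5.28% of the PARD6G exon bases on the opposite strand, rose by 2.27, so the strand of some PARD6G reads cannot be told apart. CRB3, the epithelial member of the Crumbs complex, had 15.2, 10.6 and 13.1 against 36.4, 32.2 and 24.6 (1.20).

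Classical and related cadherins, the calcium-dependent adhesion receptors, moved in both directions: 5 of 7 rose and 2 fell. CDH11 (chr16:64943753-65126112, minus strand), a cadherin of mesenchymal cells with the most counts of the 7, had 2814, 2896 and 2876 in control libraries and 3543, 3665 and 3124 in silenced libraries. CDH4, the retinal R-cadherin, had 1872, 1973 and 1689 against 2060, 2206 and 2411. These are small differences (log2 fold changes of 0.26 and 0.27), and the CDH4 call was lost without sh-Control replicate 3 (limma adjusted p 0.0794). The per-kilobase ratio of CDH4 to CDH11 was 1.17 ± 0.0915 in control and 1.19 ± 0.19 in silenced cells (SD, n = 3 each, exact two-sided permutation p 1). Larger rises came from cadherins with few counts. CDH17, an intestinal cadherin, had 36.7, 32.7 and 26.2 in control libraries and 195, 178 and 195 in silenced libraries, a log2 fold change of 2.55 ± 0.181 (SE, limma adjusted p 3.57e-06). CDH10, a neuronal cadherin, had 89.3, 112 and 111 against 224, 245 and 255 (1.21 ± 0.141, SE, limma adjusted p 9.19e-05). CDH3, which encodes P-cadherin, the cadherin typical of RPE, rose from 16.0, 10.6 and 15.9 to 61.6, 56.7 and 76.1 (2.13 ± 0.258, SE), although 11.1% of its exon bases overlap a gene on the opposite strand. In all 3 of these genes every silenced library lay above every control library.

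CDH8 and CDH24 fell. CDH8, a neuronal cadherin, had 95.7, 164 and 126 in control libraries and 21.5, 30.9 and 12.3 in silenced libraries (log2 fold change -2.58 ± 0.327, SE, limma adjusted p 0.00016). CDH24 had 1658, 1516 and 1364 against 1123, 1113 and 1126 (-0.43). Per kilobase, the sum of the 7 cadherins was 917 ± 51.5 in control and 986 ± 15.9 in silenced cells (SD, n = 3 each), so the rises and falls nearly balanced in the sum. Within it the share of CDH24 went from 44.0% to 30.4%, that of CDH17 from 0.887% to 4.92% and that of CDH10 from 3.12% to 6.69%.

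Among catenins, which link cadherins to actin, CTNNA1 (alpha-catenin, chr5:138610967-138935034, plus strand) had 8017, 8111 and 8070 scaled counts in control libraries and 9353, 9303 and 9163 in silenced libraries. The difference was small but well above the spread (log2 fold change 0.20 ± 0.047, SE, limma adjusted p 0.00689). CTNND2, the neural delta-catenin, fell from 48.7, 49.0 and 43.0 to 13.1, 24.5 and 19 (-1.31).

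Of the 4 listed desmosomal genes 1 rose and 3 fell. JUP (chr17:41754604-41786931, minus strand), which encodes plakoglobin, the catenin shared by desmosomes and adherens junctions, rose from 1094, 1190 and 1209 to 1978, 2037 and 2017 (log2 fold change 0.79 ± 0.0583, SE, limma adjusted p 4.49e-06). PKP4, which encodes an armadillo protein of junction plaques, had the most counts of the group and fell, from 4102, 4463 and 4375 to 3234, 3125 and 2816 (-0.50 ± 0.0635, SE, limma adjusted p 0.000168). The desmocollin cadherins DSC3 (2110 ± 160 to 1379 ± 25.5) and DSC2 (945 ± 108 to 703 ± 89.7, SD, n = 3 each) were lower, with log2 fold changes of -0.61 and -0.43. With edgeR and RLE factors DSC2 stood at -0.31 (adjusted p 0.0578). The per-kilobase ratio of JUP to PKP4 was 0.514, 0.514 and 0.532 in control and 1.18, 1.26 and 1.38 in silenced libraries. PKP4 thus led in every control library and JUP in every silenced one. JUP rose and PKP4 fell without overlap, so the exact two-sided permutation p of 0.1 (adjusted p 0.14) followed from those values and adds nothing to them. The ratio of DSC3 to DSC2, 3.97 ± 0.245 and 3.51 ± 0.434 (SD, n = 3 each), gave an exact permutation p of 0.2, adjusted p 0.233.

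Among gap junction genes, GJA1 (chr6:121435577-121449727, plus strand), which encodes connexin 43, the main gap junction protein of RPE, had 1827, 1783 and 1990 in control libraries and 3623, 3559 and 4139 in silenced libraries. Its log2 fold change was 1.01 ± 0.0703 (SE, limma adjusted p 3.05e-06), and the groups were far apart.

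**Figure D3:**
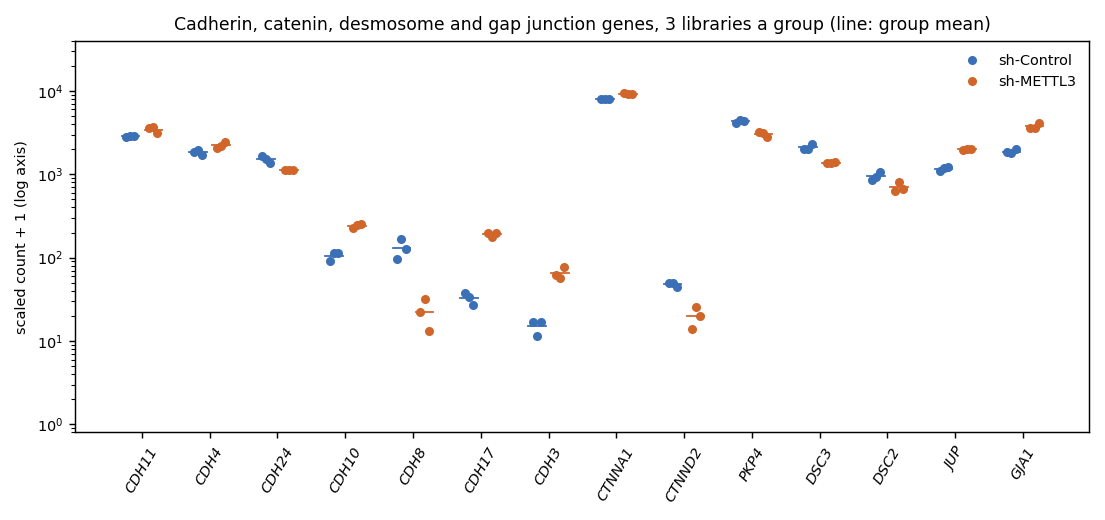
Scaled count + 1 on a log axis for each of the 6 libraries, for cadherins, catenins, desmosomal genes and GJA1, with a line at each group mean. CDH17, CDH3 and CDH10 rise, CDH8 and CTNND2 fall, and GJA1 rises from a mean of 1867 to 3774.

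Protocadherins, cadherin-like receptors that let cells recognise their own kind, made up 16 of the 50 junction genes, 7 higher and 9 lower. PCDH1 (chr5:141853111-141879246, minus strand), an epithelial protocadherin, had the most counts and fell from 1323, 1358 and 1199 to 686, 674 and 546 (log2 fold change -1.03 ± 0.0948, SE, limma adjusted p 1.87e-05). Outside the gene clusters, PCDH7 (1.37) and PCDH19 (2.08) rose and PCDH9 (-1.33) fell. The other 12 lie in the PCDHA, PCDHB and PCDHG clusters, which sit side by side on chromosome 5 and in which each gene begins at its own first exon.

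Each cluster held genes that moved in both directions. In the PCDHG cluster, PCDHGA12 rose from 213, 243 and 212 to 371, 343 and 367 (0.69), and PCDHGB6 from 19.1, 21.1 and 30.8 to 77.4, 90.2 and 89.6 (1.84). PCDHGA2 (-0.57) and PCDHGB5 (-0.59, from 386, 333 and 399 to 229, 244 and 266) fell. The per-kilobase ratio of PCDHGA12 to PCDHGB5 went from 0.609 ± 0.11 to 1.48 ± 0.132 (SD, n = 3 each). Its exact two-sided permutation p of 0.1 (adjusted p 0.14) followed from the opposite moves of the pair, each without overlap. In the PCDHB cluster, PCDHB2, PCDHB8, PCDHB10 and PCDHB16 fell (-1.12 to -1.84) and PCDHB15 rose (2.16), all but PCDHB2 from fewer than 30 scaled counts in any library. In the PCDHA cluster PCDHAC2 fell (-1.37) and PCDHA6 rose, having no read in any control library and 34, 20 and 7 reads in the silenced libraries. Against a floor of 3 reads per control library, PCDHA6 was at least 8.09-fold higher, for counting error only. PCDHA11 had 6, 3 and 0 reads in control and 15, 8 and 12 in silenced libraries. Its call was lost in 3 of 15 alternatives, among them the fit without sh-METTL3 replicate 1 (limma adjusted p 0.0552). Genes of the PCDHA and PCDHG clusters share their last exons (45.4% to 46.7% and 32.2% to 45.3% of their exon bases), and PCDHB genes are closely related copies of each other, so how reads were split among them is uncertain.

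**Figure D4:**
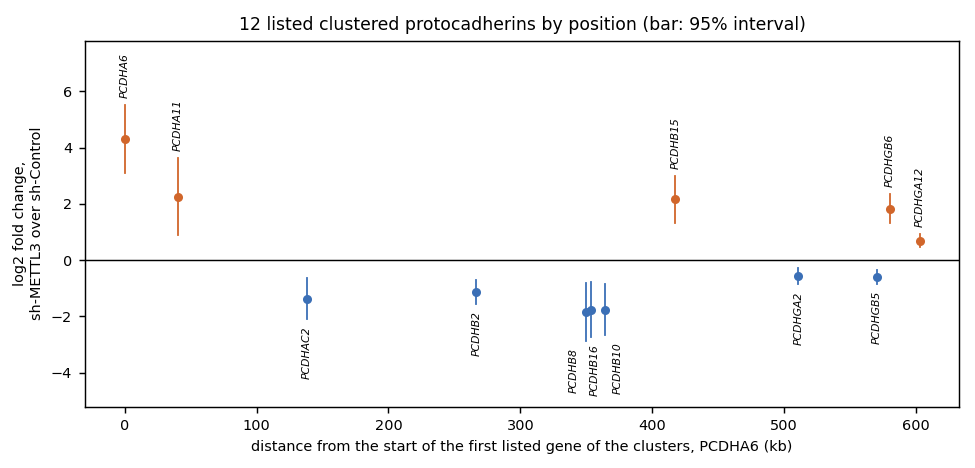
Log2 fold change (METTL3-silenced over control) of the 12 listed clustered protocadherins against their distance in kb from the start of PCDHA6, with 95% intervals as bars. Rising genes (orange, 5) and falling genes (blue, 7) are interleaved along the clusters; the PCDHA6 point depends on the pseudocount and is no bound.

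Of the 3 genes found only by their letters, DSCAM, a neural adhesion molecule, had 43.9, 50.9 and 28.0 in control libraries and no read in any silenced library, at least 12.3-fold lower against 3 reads per library. CLDND2 rose from 6.38, 1.92 and 3.74 to 13.1, 11.6 and 24.6 (1.82). DSCC1, a gene of sister chromatid cohesion, had 82.2, 89.4 and 77.6 in control and 60.6, 51.5 and 34.7 in silenced libraries (-0.78), and its call was lost without sh-Control replicate 1 (limma adjusted p 0.0656) or 2 (0.0905).

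A wider list of 78 genes that build or regulate junctions had 37 listed members, all past the limma test, 22 higher and 15 lower, against the same 97.9% background. A log2 fold change of at least 1 was reached by 10 of the 37 (27%, against 30.5% of the list and 25.1% of its protein-coding genes), 5 in each direction. With a mean scaled count of at least 100 it was 8 of 35 (22.9%, against 15.1% of listed genes at that level). CLMP, an adhesion molecule of epithelial tight junctions, fell from 3680, 3677 and 3741 to 941, 863 and 999 (-1.99 ± 0.0622, SE, limma adjusted p 2.4e-08). ARHGEF2, a RhoA exchange factor that binds tight junctions, fell from 4366 ± 632 to 2089 ± 85.8 (-1.05, SD, n = 3 each). MYL9, the myosin light chain of contractile actin bundles, rose from 1820, 1935 and 1951 to 5640, 6425 and 4204 (1.49). EPB41L4B (1.62) and CELSR1, a large cadherin of planar polarity (2.05), also rose. So did the epithelial keratin KRT8 (1.05) and periplakin, PPL (1.19), which attach to desmosomes, beside KRT18 (0.41), KRT7 (0.63) and the mesenchymal filament VIM (0.96). Among intermediate filament and desmosome-linked genes 6 of 7 listed rose, KRT80 being the exception (-0.52), and 46.6% of the whole list was called higher.

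Transcription factors that repress epithelial junction genes in other settings were in that wider list. SNAI1 fell from 161, 207 and 162 scaled counts to 44.8, 45.1 and 20.2 (-2.31 ± 0.292, SE, limma adjusted p 0.000157) and ZEB2 from 2596, 2409 and 2429 to 1553, 1561 and 1812 (-0.60), while TWIST1 rose from 241, 278 and 225 to 307, 385 and 347 (0.48). TWIST1 did not pass without sh-METTL3 replicate 2 (limma adjusted p 0.0549). The E-box CAGGTG, searched on both strands (CACCTG on the other), is the letter pattern to which SNAI1 and ZEB2 are known to bind. It occurs in 20.6% of 35116 RefSeq promoters (250 bases before to 50 after an annotated start, GRCh38.p14), and in at least 1 promoter of 24.1% of 27305 genes. Only 37 of the 50 junction genes had a promoter entry (74%), so a check over the group is void and its share was not set against that background. The sequences below show where the pattern stands upstream of a start in 4 genes that fell and 3 that rose, printed 5′ to 3′ on the gene's strand with the E-box in capitals in either orientation, OCLN being shown before 2 of its annotated starts.
OCLN (chr5:69492502-69492531, plus strand, 33 bases before a start): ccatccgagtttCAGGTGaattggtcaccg
OCLN (chr5:69492645-69492674, plus strand, 133 bases before another start): tctaggacgcagCAGGTGggactcgcggcg
TJP1 (chr15:29969120-29969149, minus strand, 88 bases before a start): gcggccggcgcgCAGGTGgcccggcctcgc
CLDN7 (chr17:7262596-7262625, minus strand, 135 bases before a start): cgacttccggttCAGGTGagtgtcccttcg
PCDH1 (chr5:141869691-141869720, minus strand, 81 bases before a start): cccagggagcgtCAGGTGggtgagggtgtt
JUP (chr17:41786002-41786031, minus strand, 43 bases before a start): cCACCTGccgagCAGGTGagcgcacggagt
CRB3 (chr19:6464199-6464228, plus strand, 60 bases before a start): agtgcgctctccCAGGTGagtgactaaact
PARD3B (chr2:204545333-204545362, plus strand, 130 bases before a start): cagggagagaccCAGGTGacgagacgaggc
These genes were picked because they hold the pattern, and a match is a description of letters, not a bound site. The sequences are examples. DSC2 and PCDHGA2, which fell, and CDH4 and PCDHGB6, which rose, also hold the pattern upstream of a start. CLDN7 and CRB3 hold it at further upstream sites. Other transcripts of the same gene may begin further upstream.

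The letters GGACT, the commonest core of the sequence that METTL3 methylates, were counted in the longest transcript of each gene. The 29 lower junction genes had a median of 1.01 per kilobase and the 21 higher ones 0.952, and lower and higher genes of all listed protein-coding genes had 0.901 and 0.984. The junction genes ranged from 0 in CLDN1, JUP and NECTIN3 to 3.47 in CRB3, with 0.755 in TJP1 and 0.777 in OCLN. The letters alone do not show whether a transcript carries m6A, which was not measured in these libraries.

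Several junction genes lie in stretches where most listed neighbours moved the same way. Within 5 Mb of TJP1, 32 of 35 other listed genes were lower (91.4%, against 52.3% of the list), with a median log2 fold change of -1.06, close to that of TJP1 itself. Around NECTIN1 46 of 49 were lower (median -0.71), around CLMP 60 of 62 (-0.71), and around JAM3 13 of 15 (-0.68), all on chromosome 11, where the windows of NECTIN1 and CLMP share genes. Around JAM2 on chromosome 21 the count was 8 of 8 (-0.73). In the other direction, 6 of 7 were higher around PARD6G on chromosome 18 (median 1.18), which itself rose by 1.36. OCLN had 11 of 18 lower neighbours and JUP 50 of 98, while CLDN3, which fell, had 8 of 30 lower and 22 higher. These genes were picked after their neighbours' values were seen, neighbouring genes are not independent of each other, and the part of the stretches in the junction values was not tested.

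**Figure D5:**
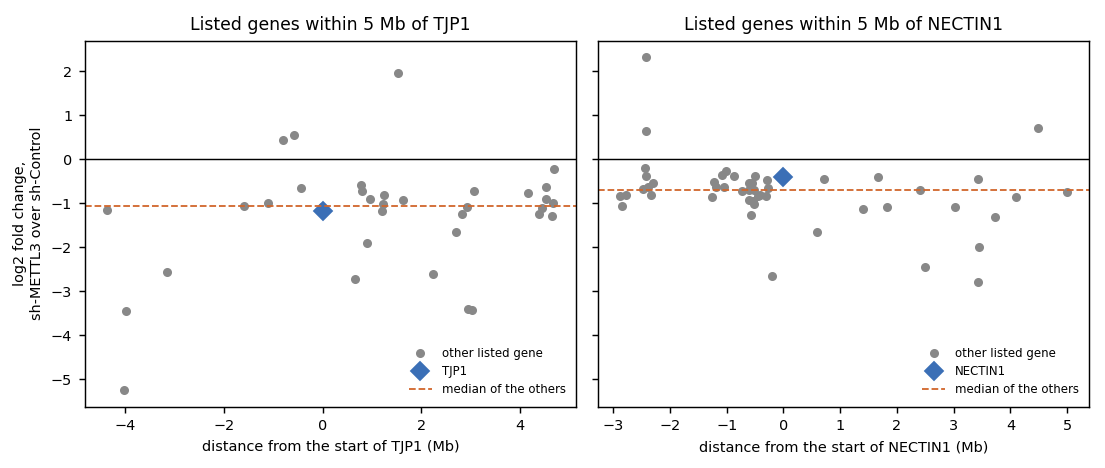
Log2 fold change (METTL3-silenced over control) of the other listed genes within 5 Mb of TJP1 (left) and NECTIN1 (right) against distance in Mb, with a diamond for the gene itself and a dashed line at the median of the others. TJP1 lies beside its neighbours' median of -1.06, and NECTIN1, at -0.41, lies above its neighbours' median of -0.71.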

How the data were processed

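RNA-seq of 3 sh-METTL3 and 3 sh-Control libraries was analysed, grouped by the sample labels. The submitters' processing notes name HISAT2 2.0.5 and hg38, the labels name a TruSeq RNA kit, and the study's methods name Cufflinks with RefSeq. The table instead has Ensembl genes whose start and end equal those of GENCODE 29 for all 7758 genes. The read counter and strandedness are not given in the sources used here. For each library the authors deposited a signal, the read count of a gene divided by 1 size factor, and 100% of values came out as whole reads within 0.01. They also deposited group means, a log2 fold change, p-values and adjusted p-values, with no adjusted p above 0.05. These columns hold the study's findings and were not used, except that the ratio of adjusted p to p gives 22977 tests.

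limma 3.58.1 (R 4.3.3, intensity trend) was fitted to log2(scaled count + 1) for all 7758 genes without covariates, which understates changes of weakly expressed genes. P-values were adjusted by Benjamini-Hochberg over 22977 tests, with a threshold of 0.05, and the fit was tested on simulated data. Variance and scaling factors were estimated on selected genes. Alternatives used edgeR 4.0.16, DESeq2 1.42.0, other settings and left-out libraries. Since whole reads were recovered, the edgeR quasi-likelihood fits used those reads; with the authors' scaling they called 7645 genes. Ratios used exact two-sided permutation, and their gene pairs were not part of the planned tests. Where a gene that rose without overlap is set against one that fell without overlap, the smallest p is fixed. Genes named in full were OCLN, TJP1, the member with the most counts in each role, and those with an adjusted p below 0.05, an absolute log2 fold change of at least 1 and a mean of at least 100; others were named after their values were seen. The members and lists were chosen with earlier results of these data known. The number of reads limits precision, and whole-library depth is unknown because unlisted genes were not analysed. In 13 rows the symbol had turned into a date, none of them a member. Single results for some members are not reported here, though counts over the members include them.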

Additional observations from a re-analysis of the deposited data

How the results depend on the processing

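Of the 53 members, 37 were fitted in all 16 alternatives and 16 in 15, their mean being too low for the minimum of 50. No member changed direction in an alternative that fitted it, 43 passed the threshold in each of theirs and 10 lost it in at least 1 (CDH11, CDH4, DSC2, DSCC1, F11R, NECTIN1, NECTIN2, NECTIN3, OCLN and PCDHA11); none of the lost calls had its cause tested. Since the table holds only called genes, these counts describe the list and not all junction genes. RLE factors moved the median log2 fold change of all listed genes from -0.21 to -0.09, with 47.6% of all calls being higher before and 56.3% after, and with them 47 members passed, 22 higher and 25 lower. OCLN, at -0.32 beside a list median of -0.21, stood at -0.20 beside -0.09 with edgeR and RLE factors (adjusted p 0.256), and at -0.28 with TMM factors (0.0581). Members past an absolute log2 fold change of 1 numbered 30, and 14 where genes had to have a mean of at least 50, since 37 members were then fitted. Genes without a read in a group, placed at their bound (an alternative chosen after seeing the data), left that count at 30. Without 1 library at a time, 48 to 52 members passed, 28 to 30 of them past that size, and OCLN ranged from -0.36 to -0.25.

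The replicate numbers of the groups did not pair the libraries: the correlations of same-numbered libraries' deviations were 0.00361, 0.0193 and -0.015. With the replicate number as a block, 52 of 53 members passed, and OCLN, at -0.32, had a limma adjusted p of 0.0637.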
